A study of Mus musculus with 80 samples.

Results

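The mitochondrial ribosomal protein genes were taken as the genes whose symbol begins with Mrpl or Mrps followed by a digit, which gave 77 of the 22556 genes of each expression table. Mitochondria make their own ribosomes to translate the few mRNAs of mitochondrial DNA, nearly all of which encode core subunits of the respiratory chain. The proteins of these ribosomes are encoded in the nucleus, made in the cytosol and imported, and they fall into a large subunit, which forms peptide bonds, and a small subunit, which decodes the mRNA. Some have a bacterial counterpart and others are particular to mitochondria. Doxycycline (Dox), an antibiotic of the tetracycline class, binds bacterial ribosomes and also blocks translation in mitochondria.

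Chromatin-associated RNA (ChrRNA-seq) was profiled in mouse embryonic stem (mES) cells of a Cast x 129S cross, in a total of 80 libraries. Dox drives Xist from a TetOn promoter on a single X chromosome. The inducible Xist allele was on the Cast X in the METTL3, ZFC3H1 and transgene lines, and on the 129S X, with a Bgl stem-loop array, in the YTHDC1 and ZCCHC8 lines. Each library is a line left untreated, given dTAG (26 h by the sample titles, 2 h by the treatment field), given Dox for 24 h, or given dTAG for 2 h and then dTAG and Dox together for 24 h. dTAG leads to degradation of a protein that carries the FKBP12 F36V tag: METTL3, which carries the methyltransferase activity of the m6A writer complex (clones G4 and H1 tagged at the N terminus, C3 and H5 at the C terminus), ZCCHC8 of the nuclear exosome targeting complex NEXT (Z4F, Z12H), the nuclear m6A reader YTHDC1 (Y9F, Y12H), and ZFC3H1 of the PAXT complex (8H, 11A). YTHDC1 was sequenced in 2 experiments, of which one shares its table with ZCCHC8 (the shared table) and the other has its own (the separate table). The transgene lines derive from the H5 clone, so that they keep the degradable METTL3, and express GFP-METTL3 from Rosa26 as wild type (WT) or as D395A, a change in the catalytic site. For both forms there was 1 clone with both X chromosomes (XX) and 1 clone labelled XiO, in 2 experiments each. There were thus 32 groups, 9 lines (with the YTHDC1 experiments counted apart) and 20 pairs of libraries with and without Dox.

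Values are CPM, read counts scaled to the total of each library, which include introns because reads were counted over the whole span of each gene, and scaled CPM are those values divided by a library factor, the median ratio over autosomal genes within a table. Depth was 8.58 to 34.4 M reads (median 22.5 M), and 14977 to 73062 reads per library fell on the 77 genes, which together made up 1687 to 2243 CPM in untreated libraries. A read was worth 0.0291 to 0.117 CPM. The stem cell markers Esrrb and Zfp42 stood at 229 to 1075 and 133 to 996 CPM in every library, while the 8 markers of the feeder fibroblasts on which the cells were grown summed to 2.67 to 22.5 scaled CPM, with the 8 libraries of the WT XiO line (16.3 to 22.5) above all others. Sox2 was listed at 0 in every library, and its span lies within that of Sox2ot on the same strand. dTAG acts on the protein, so these tables do not show the depletion itself. The RNA of none of the degron targets was called lower with dTAG, and Zfc3h1 was called higher in its own line (log2 0.30, limma adjusted p = 0.0335), at 247 to 290 scaled CPM without dTAG and 312 to 356 with it. With Dox, Xist rose in 20 of 20 pairs (log2 5.50), and Dox and Xist induction cannot be told apart in any comparison.

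Of the 77 genes, 50 encode large-subunit proteins (29 with a bacterial homologue and 21 specific to mitochondria) and 27 small-subunit proteins (16 and 11). By protein Mrps18a and Mrps30 belong to the large subunit, and Mrps36 has since been assigned to the oxoglutarate dehydrogenase complex of the citric acid cycle. The genes lie on 17 chromosomes, with 10 on chromosome 11, 8 on chromosome 17 and 0 on the X. Their spans run from 825 bases (Mrpl53) to 121712 bases (Mrps28), with a median of 7306 bases against 15594 bases for all genes. A head-to-head neighbour, a gene on the opposite strand whose start lies within 1 kb, was present for 27 (35.1%), against 9.39% of all genes and 13.3% of the genes that reached a mean of 1 CPM untreated. Mrpl46 and Mrps11 are each other's neighbour at 42 bases. Mrps23, Mrps6 and Mrpl53 overlap another gene on the same strand (Cuedc1, Slc5a3 and Ccdc142), so reads there could not be assigned to 1 gene with certainty.

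Per kb of span, the levels in untreated libraries ran over more than an order of magnitude, with a median of 1.87 CPM per kb. Mrpl24 was highest at 7.56 ± 2.22 CPM per kb (SD, n = 20), followed by the small-subunit gene Mrps2 at 5.95 ± 1.30 and Mrpl15 at 5.25 ± 1.37, and these 3 overlapped one another across libraries. The lowest were Mrpl14 at 0.31 ± 0.14, Mrps33 at 0.35 ± 0.07 and Mrps23 at 0.47 ± 0.11 CPM per kb. Mrpl53 and Mrpl34 stayed under a mean of 1 CPM and were left out of most fits.

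The mean untreated level of a gene differed between lines by a median ratio of 1.69 (highest line over lowest) among the 75 genes at a mean of 1 CPM or more, against 2.19 over all 13449 genes with such a ratio. The ratio exceeded 2 for 23 of the 75 genes. Mrps36 had the widest, 5.54: its untreated mean was 10.8 CPM in the METTL3 clones, 11.8 in ZFC3H1, 13.0 in WT XX, 10.1 in D395A XiO, 7.72 in WT XiO and 4.44 in D395A XX, but 2.70 in ZCCHC8 and 2.35 and 2.68 in the YTHDC1 experiments. The 3 low values are the lines with the inducible Xist on the 129S X, and all others are on the Cast X. Tables were scaled separately by the submitters and lines differ in clone and experiment, so what sets this difference was not tested.

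To show where transcription of these genes starts, 68 of the 77 were matched to a RefSeq window (GRCm38.p6) upstream of their start, and 64 of these start within 100 bases of the start in the tables. The 250 bases upstream were searched on both strands for the 10-letter NRF1 consensus (the form matched in Mrpl12 is in capitals in its sequence), for CCGGAAGT of the ETS family, to which the GABP factor belongs, and for the YY1 consensus. These factors are known regulators of nuclear genes for mitochondrial proteins. NRF1 letters were found for 10 genes (14.7% against 3.74% of all 32851 windows), ETS letters for 10 (14.7% against 2.88%) and YY1 letters for 1 (1.47% against 0.301%). At least 1 of the 3 was present for 21 genes (30.9% against 6.62% of all windows), and the windows of the 68 genes were richer in GC (median 58.2% against 52.4%). The 32851 windows were not limited to expressed genes and can hold several per gene, so the shares of expressed genes may differ.

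The 150 bases before the start are printed for the 2 genes that rose most with METTL3 depleted (Mrpl43 and Mrpl12) and the 4 that rose most with ZCCHC8 depleted, on the strand of the gene, 5′ to 3′, with motif letters in capitals. They come from chr19:45006443-45006592 (minus strand) for Mrpl43, chr11:120484487-120484636 (plus) for Mrpl12, chr7:28741822-28741971 (minus) for Mrps12, chr14:54426759-54426908 (plus) for Mrpl52, chr17:45686199-45686348 (plus) for Mrpl14 and chr13:73330859-73331008 (plus) for Mrpl36. Mrpl43 holds the ETS letters and Mrpl12 the NRF1 letters, and the other 4 hold no exact match to any of the 3 motifs. Near matches were not searched.
Mrpl43: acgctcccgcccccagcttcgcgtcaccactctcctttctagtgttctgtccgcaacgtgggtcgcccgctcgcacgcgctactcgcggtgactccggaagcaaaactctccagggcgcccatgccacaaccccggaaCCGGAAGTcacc
Mrpl12: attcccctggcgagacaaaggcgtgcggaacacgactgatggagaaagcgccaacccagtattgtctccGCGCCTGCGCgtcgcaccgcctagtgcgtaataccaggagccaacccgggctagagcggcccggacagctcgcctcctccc
Mrps12: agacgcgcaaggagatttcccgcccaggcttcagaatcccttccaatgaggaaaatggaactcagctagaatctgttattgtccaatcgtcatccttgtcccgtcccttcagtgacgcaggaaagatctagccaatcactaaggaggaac
Mrpl52: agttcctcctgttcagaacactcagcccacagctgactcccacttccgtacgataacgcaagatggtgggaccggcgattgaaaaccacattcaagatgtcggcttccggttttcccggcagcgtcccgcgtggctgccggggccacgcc
Mrpl14: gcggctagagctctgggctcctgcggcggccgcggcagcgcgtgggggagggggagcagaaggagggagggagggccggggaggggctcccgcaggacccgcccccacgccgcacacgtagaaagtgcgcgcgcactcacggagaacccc
Mrpl36: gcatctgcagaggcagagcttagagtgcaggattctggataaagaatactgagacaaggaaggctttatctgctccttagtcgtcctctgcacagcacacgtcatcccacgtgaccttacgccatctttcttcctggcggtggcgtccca

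The first question was whether Dox, given for 24 h, changed the RNA of these genes. Over the 20 pairs the median log2 difference between Dox and untreated was -0.01 for the 75 genes tested and -0.01 over all genes. Of the 75, 6 were higher and 1 was lower with Dox, whereas 24.4% of all genes tested were called (10.2% higher and 14.1% lower), so fewer of these genes than of all genes passed. Calls are at an adjusted p under 0.05 in limma, with Benjamini-Hochberg adjustment over all genes tested and each pair as a block. The 95% intervals of all 75 log2 differences lay between -0.31 and 0.35. By pair, the median over the genes ranged from -0.12 to 0.12 and was above 0 in 12 of 20.

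**Figure D1:**
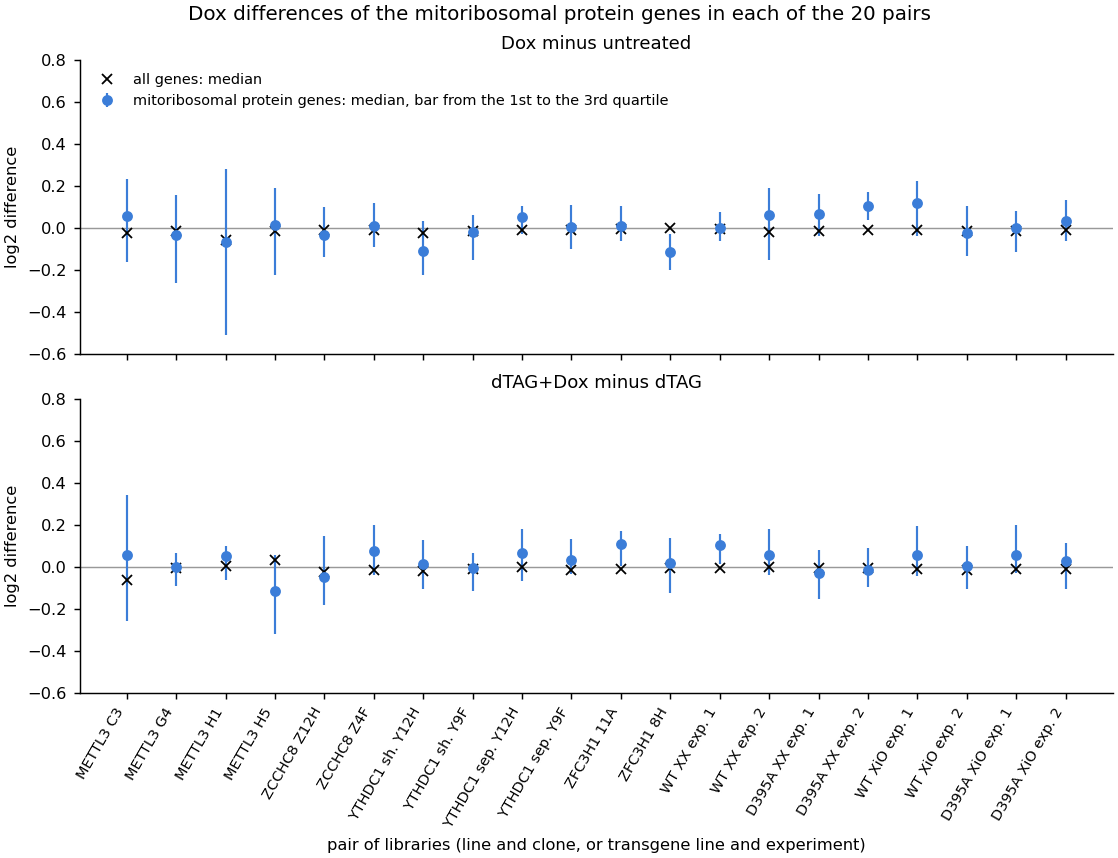
Median log2 Dox difference of the mitochondrial ribosomal protein genes in each of the 20 pairs (points, with bars from the first to the third quartile over genes) beside the median of all genes (crosses), without dTAG (top) and with dTAG (bottom). The medians of the group lie on either side of 0, within 0.12 of it in every pair.

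The gene that rose most was Mrpl40, a protein specific to the mitochondrial large subunit, whose start lies 113 bases from that of Hira on the opposite strand. It stood at 5.73 to 10.9 scaled CPM in the 20 untreated libraries (median 8.29) and at 6.88 to 13.4 with Dox (median 9.61). The ranges overlap, but within pairs it was higher with Dox in 19 of 20. The log2 difference was 0.21 (SE 0.04, limma adjusted p = 0.000242), a 1.16-fold rise on the log2(scaled CPM + 1) scale, which is used for all differences and understates those of low genes.

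Mrps27, a small-subunit protein of the pentatricopeptide repeat family that binds RNA, went from 128 to 212 scaled CPM untreated (median 171) to 141 to 225 with Dox (median 185). It too was higher in 19 of 20 pairs, by log2 0.10 (SE 0.02, limma adjusted p = 0.00187). Mrpl45, a large-subunit protein that ties the ribosome to the inner membrane, rose in 18 of 20 pairs by 0.14 (SE 0.03, limma adjusted p = 0.00138), from a median of 28.7 to 31.7 scaled CPM. In all 3 the gain was smaller than the spread between libraries of different lines and showed within pairs.

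Another 3 rose with less support, namely Mrps33 (log2 0.16, 14 of 20 pairs), Mrpl49 (0.14, 17 of 20) and Mrpl15 (0.10, 16 of 20), and Mrpl3, a large-subunit gene with a bacterial homologue, fell by 0.12 (16 of 20 pairs lower). Mrpl40, Mrpl45 and Mrps27 kept their calls whichever line was left out. The other 4 lost theirs without ZCCHC8 and, depending on the gene, without up to 5 further lines, with log2 differences between 0.08 and 0.19 for the 3 that rose and between -0.14 and -0.08 for Mrpl3. The count of 7 became 3 without ZCCHC8 and 4 without the shared YTHDC1 table, the separate one or WT XiO.

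The comparison was repeated in other libraries, with dTAG in both arms (dTAG + Dox against dTAG, 20 pairs that share no library with those above). There 8 of 76 genes were higher and 1 was lower, with 35.8% of all genes called (16.1% higher and 19.7% lower), and the median was 0.02 against -0.01 over all genes. With CPM as deposited the count was 16 higher and 1 lower, with the median of all genes at 0.02. In the group 53 of 75 genes had the same sign in both sets of libraries (Pearson 0.57), against 11232 of all 13455 genes (0.94). The group thus repeated less closely than all genes. Mrpl40 (0.19), Mrps27 (0.12), Mrpl45 (0.10) and Mrpl49 (0.11) were called higher in both sets of libraries. That is 66.7% of the 6 genes called higher without dTAG and 50.0% of the 8 called with it. The matching overlap over all genes is not given here, so these shares do not set the group apart. Mrpl49 lost its call with dTAG when the METTL3 line was left out (log2 0.09). The other 4 that rose were Mrps21, Mrpl23, Mrpl24 and Mrpl52 (0.12 to 0.16), which were named after their values were seen. The same holds for Mrpl16, which fell by 0.24 (SE 0.05, limma adjusted p = 0.000896) in 19 of 20 pairs, from a median of 10.3 to 9.19 scaled CPM. Without dTAG it was lower with Dox in 15 of 20 pairs and was not called.

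**Figure D2:**
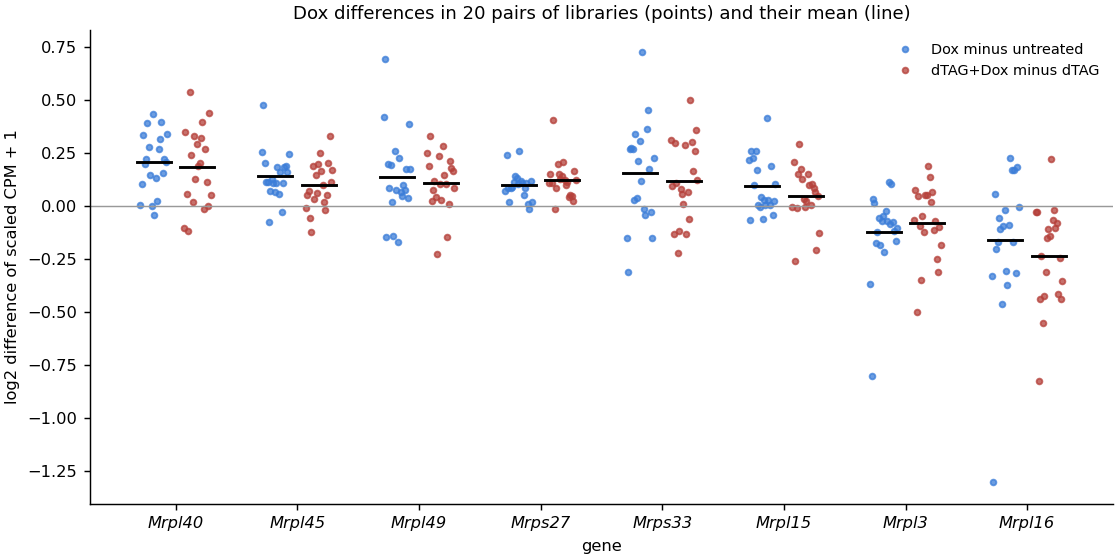
Log2 Dox difference of 8 genes in each of the 20 pairs (points) and their mean (black line), without dTAG (blue) and with dTAG (red). Mrpl40, Mrpl45, Mrpl49 and Mrps27 lie mostly above 0 in both sets, and Mrpl16 mostly below.

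No gene of the group had a Dox difference that differed between the 9 lines (limma F test, 0 of 75, with 0.549% of all genes called). At an unadjusted p under 0.05 there were 2, and edgeR on the reads called 0. The 9 lines held 2 or 4 pairs each, which limits what this test can detect.

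The other genes of mitochondrial protein synthesis are counted here against the 24.4% of all genes called with Dox without dTAG and the 35.8% called with it. Of 6 further mitochondrial ribosomal proteins under other symbols (among them Dap3 at 0.04 and Ptcd3 at 0.09 without dTAG) 0 passed the limma test in either Dox comparison. At an unadjusted p under 0.05 there was Dap3 with dTAG (log2 0.06), which edgeR called (adjusted p = 0.0219), and without dTAG there was none by either tool. Among 13 translation factors Gfm2, a factor for ribosome recycling, rose by 0.10 and Mtfmt, which formylates the initiator tRNA, fell by 0.11, and both were called in the same direction with dTAG (0.08 and -0.14). Of these 13, 1 rose and 1 fell without dTAG and 1 rose and 2 fell with it. Among 17 assembly factors 1 rose without dTAG and 2 with it, and 0 fell. Nsun4, a ribosomal RNA methyltransferase, rose by 0.11 and 0.17. Of 17 mitochondrial tRNA synthetases Ears2 rose (0.12 and 0.15) and Mars2 fell (-0.22 and -0.19) in the comparisons without and with dTAG, in which 1 and 3 of the 17 rose and 1 and 1 fell. Of 11 genes of mitochondrial DNA transcription and replication 0 rose in either comparison, and 1 fell without dTAG and 2 with it. Nrf1, the transcription factor named among the motifs, fell by 0.14 and 0.12.

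The next lists stand beside all genes, of which 10.2% were higher and 14.1% lower with Dox without dTAG. With dTAG these shares were 16.1% and 19.7%. The mitochondrial stress response follows a block of mitochondrial translation in other cells. Its list had 1 of 16 genes higher and 0 lower without dTAG, and 4 of 17 higher and 0 lower with it. The 1 gene was Trib3 (0.15 and then 0.23), and those called only among the libraries with dTAG were Asns (0.12), Atf4 (0.19) and Mthfd2 (0.14). Atf4 and Mthfd2 were named after their values were seen. Among nuclear-encoded respiratory chain subunits 2 of 77 were higher and 5 lower without dTAG, with X-linked Cox7b at -0.52. Of the cytosolic ribosomal protein genes, 6 of 75 were higher and 5 lower without dTAG (median 0.06), and 31 were higher and 5 lower with it (median 0.12). The 5 that fell without dTAG were X-linked Rpl36a (-0.37), Rps4x (-0.36), Rpl10 (-0.28) and Rpl39 (-0.28), and Rpl10l (-0.15) on chromosome 12. Rpl39 and Rpl10l were named after their values were seen. The mitochondrial group has 0 X-linked genes.

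The second question was what each depletion did. Here the dTAG effect is the mean of 2 log2 differences, with Dox (dTAG + Dox minus Dox) and without (dTAG minus untreated). Across the 9 lines 50 of the 77 genes were called in at least 1 line and 27 in none. These 50 are 64.9%, against 81.6% of the 14483 genes tested in a line. In the same direction, 13 genes were called in 2 lines and 3 in 3 lines, which is 20.8% in 2 lines or more against 45.1% of all genes. The YTHDC1 experiments, which used the same clones, count here as 2 lines. For Mrpl10, Mrpl18, Mrpl24, Mrpl49 and Mrps5 the 2 lines were these experiments. Of the 77, 6 (7.79%, against 21.2%) were called in opposite directions in different lines. With experiment as a block in the transgene lines, 57 genes were called in at least 1 line (74.0%, against 88.0% of all genes) and 16 in the same direction in 3 lines or more (20.8%, against 37.9%). Without that block the genes with 3 were Mrps27 and Mrpl39, both lower, and Mrpl14, which was higher. Mrps27 was lower in METTL3, YTHDC1 (shared table) and D395A XX, and Mrpl39 and Mrpl14 were called in METTL3, ZCCHC8 and D395A XX. The YTHDC1 call for Mrps27 (log2 -0.12) was lost without either clone (-0.17 to -0.07 over the clones left out).

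**Figure D3:**
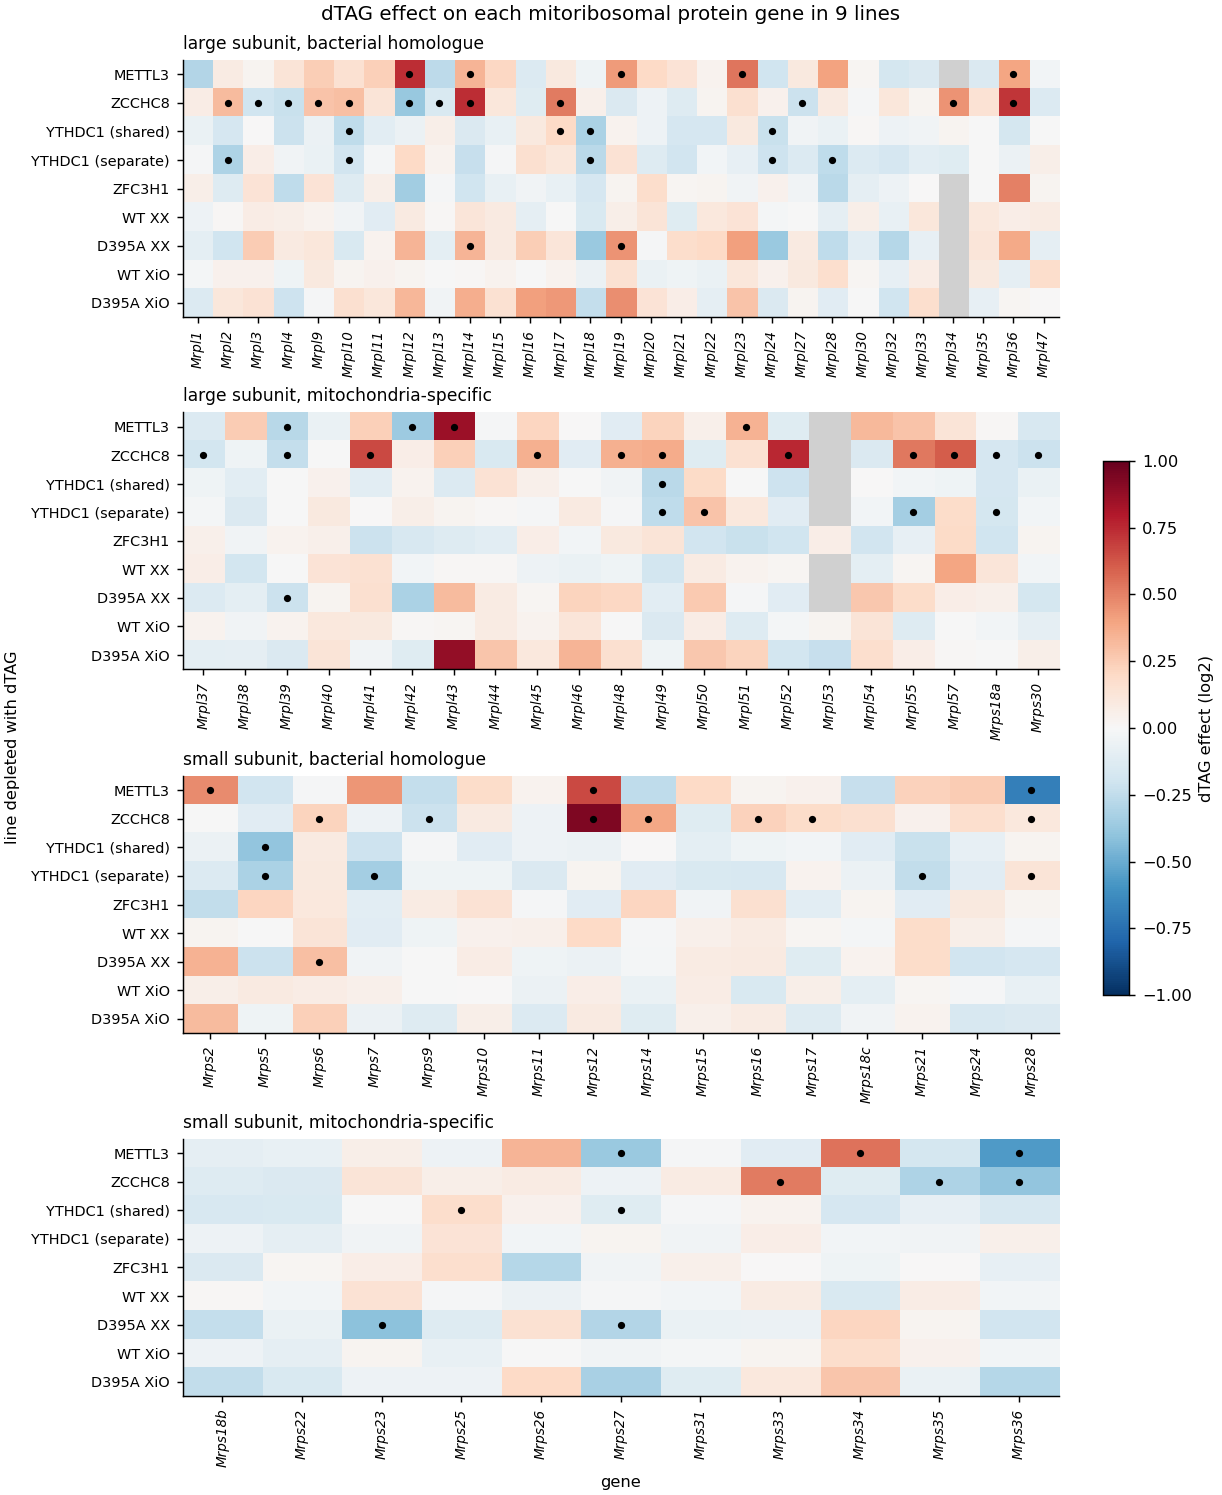
dTAG effect (log2, colour) of each gene (columns, by subunit and by whether a bacterial homologue exists) in the 9 lines (rows), with a dot where the limma adjusted p is under 0.05 (no experiment block in the transgene lines) and grey where the gene was not tested. The ZCCHC8 row holds the most dots (33), and the 2 WT rows, the D395A XiO row and the ZFC3H1 row hold none.

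With METTL3 depleted, 10 of 75 genes rose and 5 fell, with 36.4% of all genes called (16.2% higher and 20.2% lower). The median was 0.03 against 0.01 over all genes. By role, 7 of 48 large-subunit genes rose and 2 fell, and 3 of 27 small-subunit genes rose and 3 fell. This split depended on the scaling: with CPM as deposited 29 rose and 1 fell, with the median of all genes at 0.22, and with a factor taken over genes of similar span 7 rose and 16 fell, with it at -0.15. In the order G4, H1, C3 and H5, the median dTAG effect of the group was -0.13, -0.02, 0.32 and 0.02. Without C3 the count was 5 higher and 5 lower and the median over genes was -0.04.

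Calls differed by span. Among genes spanning under 5 kb, 7 of 26 rose and 0 fell (median 0.25), against 20.7% and 3.04% of all genes in this class (median 0.24). Over 15 kb, 0 of 15 rose and 4 fell (median -0.19), against 13.1% and 27.2% of all genes (median -0.09). Across genes the rank correlation of the dTAG effect with span was -0.57 for the group and -0.41 for all genes, from the same libraries. With the level of the gene it was -0.60 for the group, and span and level were not separated. Genes under 3 kb took up 0.498% to 2.95% of reads in the 8 libraries without dTAG and 1.04% to 4.57% in the 8 with it, and the extremes, 0.498% with Dox and 4.57% with dTAG + Dox, are both of clone C3. The part of library composition in these differences was not tested beyond a fit with this share as a covariate, which called 14 of the 75.

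**Figure D4:**
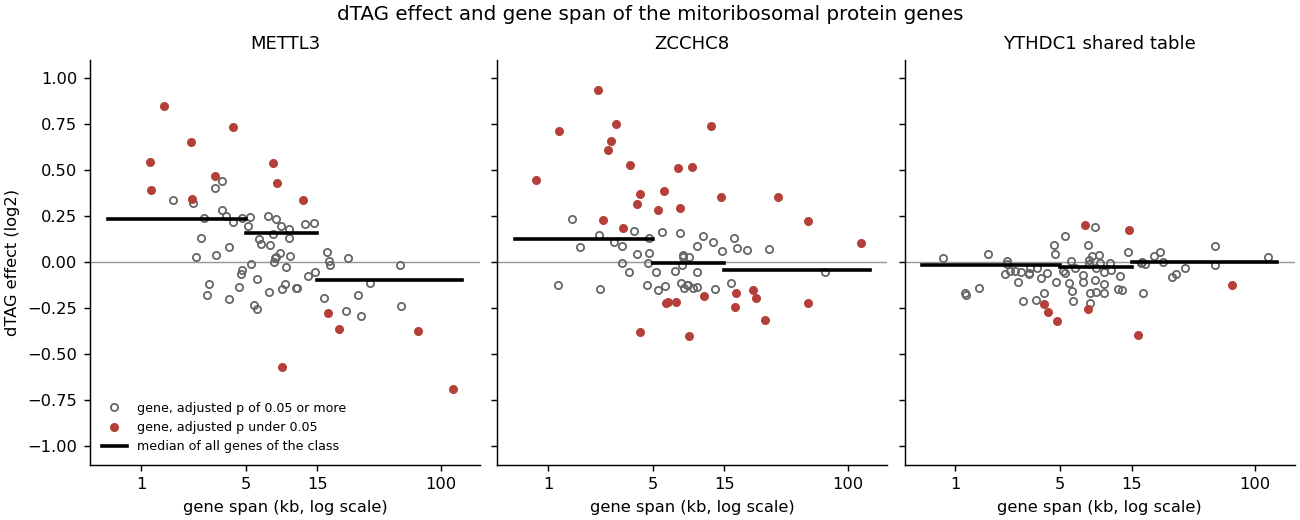
dTAG effect (log2) against gene span (kb, log scale) for the mitochondrial ribosomal protein genes in METTL3, ZCCHC8 and YTHDC1 (shared table), with called genes filled and the median of all genes of a span class as a black line. In METTL3 the called genes under 5 kb lie above 0 and those over 15 kb below it.

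Mrps28 spans 121712 bases on chr3 (8802146 to 8923857, minus strand) and encodes the mitochondrial counterpart of the bacterial small-subunit protein S1. In clones G4, H1, C3 and H5 it stood at 176, 209, 238 and 190 scaled CPM untreated and at 120, 138, 115 and 85.9 with dTAG. With Dox the values were 152, 178, 261 and 204, and with dTAG + Dox 140, 143, 118 and 134. Every library with dTAG was below every library without it, at a log2 effect of -0.69 (SE 0.12, limma adjusted p = 0.000787), 0.622-fold. It was -0.54 with Dox and -0.83 without.

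Mrps27, which spans 70776 bases, showed the same order at a smaller size. Its values were 139, 128, 165 and 139 scaled CPM untreated and 146, 152, 175 and 141 with Dox, against 115, 116, 106 and 89.9 with dTAG and 124, 129, 115 and 119 with dTAG + Dox. The highest library with dTAG (129) just passed the lowest without it (128), and the log2 effect was -0.37 (SE 0.08, limma adjusted p = 0.00349). Mrps36 fell by 0.57 and Mrpl39, of the large subunit, by 0.27. The call for Mrpl39 was lost without G4, H1 or H5 (log2 -0.34 to -0.22 over the clones left out). With CPM as deposited Mrps27 (-0.13), Mrps36 (-0.35) and Mrpl39 (-0.03) were not called.

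Mrpl43, specific to the large subunit, and Mrpl12, which forms the stalk where translation factors dock, rose most. Mrpl12 stood at 8.00, 5.30, 7.12 and 6.34 scaled CPM untreated and 9.20, 8.69, 3.86 and 5.21 with Dox, against 12.4, 8.92, 8.67 and 15.4 with dTAG and 13.9, 11.7, 14 and 9.05 with dTAG + Dox. Each clone was higher with dTAG in both Dox states, which the rule for naming the gene required. The log2 effect was 0.74 (SE 0.16, limma adjusted p = 0.00392).

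Mrpl43 was lower, at 0.61 to 1.88 scaled CPM untreated, 0.28 to 2.93 with Dox, 1.38 to 5.06 with dTAG and 2.43 to 5.37 with dTAG + Dox. The log2 effect was 0.85 (SE 0.21, limma adjusted p = 0.00769), and clone C3 gave both the lowest value (0.28, Dox) and the highest (5.37, dTAG + Dox). Without C3 the call was kept, and the effect over the left-out clones was 0.66 to 1.02. Mrps34, a small-subunit protein at 0.34 to 3.32 scaled CPM, rose by 0.55, but not past the threshold without C3 or H5 (log2 0.35 to 0.67 over the clones left out). Mrps12, Mrpl36 and Mrpl14 rose by 0.66, 0.39 and 0.34 here, and Mrpl14 was lost when any clone was left out (0.30 to 0.38).

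With ZCCHC8 depleted, 33 of 76 genes were called, more than in any other line, and 55.8% of all genes were called too (26.9% higher and 28.9% lower). Of the 33, 21 rose and 12 fell, with a median of 0.06 over the group and -0.02 over all genes. By role, 14 of 49 large-subunit genes rose and 9 fell, and 7 of 27 small-subunit genes rose and 3 fell. With CPM as deposited 24 rose and 7 fell. Of the 33, 29 had the same sign in both clones and both Dox states. The calls rest on the mean of these same differences, so this agreement is not independent support. Without clone Z12H 21 genes were called (17 higher and 4 lower).

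Of the genes spanning under 5 kb, 11 of 27 rose and 1 fell (median 0.15), against 39.5% and 11.3% of all genes of that class (median 0.13). The share of reads in genes under 3 kb was 1.16% to 1.39% without dTAG and 1.30% to 1.69% with it. With this share as a covariate 22 were called.

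The largest rise was that of Mrps12, the small-subunit counterpart of the bacterial S12 protein at the decoding site. In clones Z4F and Z12H it stood at 1.34 and 1.30 scaled CPM untreated, 1.39 and 2.13 with Dox, 3.09 and 3.55 with dTAG, and 3.91 and 4.90 with dTAG + Dox. Each of the 4 libraries with dTAG was above each of the 4 without, and the log2 effect was 0.94 (SE 0.10, limma adjusted p = 8.2e-07), 1.91-fold.

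Mrpl52, specific to the large subunit, was at 5.60 and 6.35 scaled CPM untreated, 6.15 and 6.09 with Dox, 8.79 and 12.6 with dTAG and 10.1 and 12.5 with dTAG + Dox (log2 0.75, SE 0.08, limma adjusted p = 8.42e-07). Mrpl14, at the interface between the subunits, was at 3.06 and 2.42 untreated, 2.75 and 2.28 with Dox, 5.43 and 5.01 with dTAG and 5.26 and 4.52 with dTAG + Dox (0.74, SE 0.10, limma adjusted p = 1.13e-05). Both genes were higher in every library with dTAG than in any without. For Mrpl36, a large-subunit protein with a bacterial homologue, 1.04 to 1.93 scaled CPM without dTAG met 1.88 to 4.19 with it, so that the ranges touched (0.71, SE 0.13, limma adjusted p = 0.000135).

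Among the genes that fell, Mrps36 dropped from 2.59 and 2.93 scaled CPM untreated to 1.21 and 1.36 with dTAG, but stood at 1.72 and 1.73 with Dox and at 1.75 and 1.42 with dTAG + Dox. Its log2 effect was -0.72 without Dox and -0.08 with it, on average -0.40, and the call was lost without Z12H (over the clones left out -0.45 to -0.34). Mrpl39 fell by 0.24. Mrpl12 and Mrps28, named here because METTL3 depletion moved them the other way, changed by -0.38 and 0.10 and were both called.

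**Figure D5:**
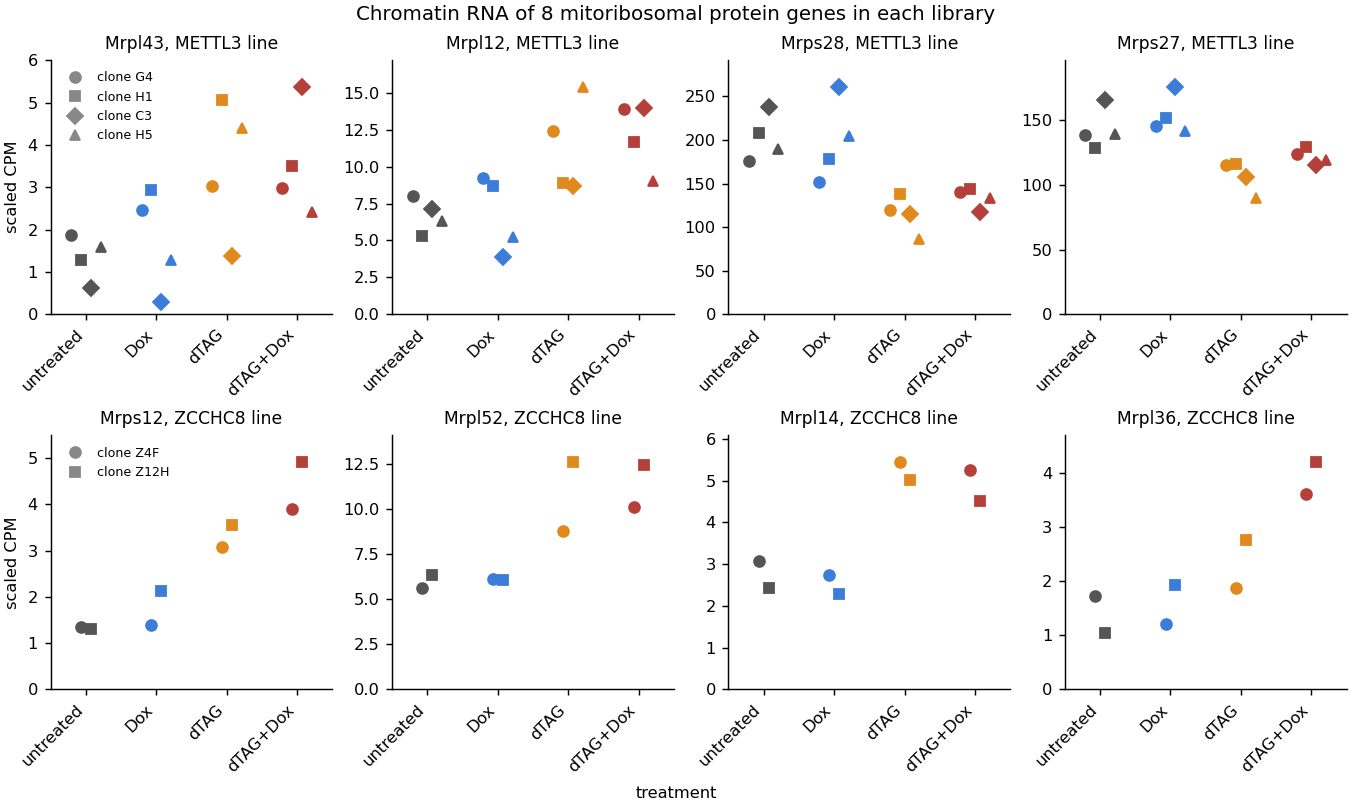
Scaled CPM (axes from 0) of 4 genes in each METTL3 library (top) and 4 genes in each ZCCHC8 library (bottom), by treatment (colour) and clone (symbol). Mrps28 is lower in all 8 METTL3 libraries with dTAG, and Mrps12, Mrpl52 and Mrpl14 are higher in all 4 ZCCHC8 libraries with dTAG.

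With YTHDC1 depleted the calls were fewer and mostly downward. Of 76 genes, 2 rose and 6 fell in the shared table (33.5% of all genes called, 16.8% higher and 16.7% lower, median -0.05 against -0.01), and 2 rose and 11 fell in the separate table (32.0% of all genes called, 16.4% higher and 15.6% lower, median -0.03 against -0.00). With the factor over genes of similar span the latter became 4 higher and 9 lower. Mrpl10, Mrpl18, Mrpl24, Mrpl49 and Mrps5 were called lower in both experiments, which is 83.3% of the 6 and 45.5% of the 11. The matching overlap over all genes is not given here, so these shares do not set the group apart. The 2 experiments share no library but the same clones. Of 76 genes, 58 had the same sign in both (Pearson 0.64), as did 10954 of all 13472 genes (0.86). For the shared table, 3 genes were called without Y9F and 3 without Y12H. The separate table left no residual degrees of freedom for such a fit.

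Mrps5, a small-subunit protein with a bacterial homologue, had the largest effect in the shared table. In clones Y9F and Y12H it stood at 46.7 and 46.0 scaled CPM untreated and 45.8 and 42.7 with Dox, against 39.1 and 33.5 with dTAG and 33.1 and 31.5 with dTAG + Dox. All libraries with dTAG were below all without (log2 -0.40, SE 0.05, limma adjusted p = 2.47e-05). In the separate table it was at 28.0 and 39.6 untreated and 23.8 and 30.6 with dTAG, and at 31.4 and 37.9 with Dox and 24.3 and 29.7 with dTAG + Dox. There each clone fell, which the rule for naming the gene required, while the clones overlapped (-0.32, SE 0.06, limma adjusted p = 0.000318).

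Mrpl18, a large-subunit protein, fell by 0.32 and 0.27 in the shared and separate tables, Mrpl49 by 0.27 and 0.25, Mrpl10 by 0.26 and 0.19 and Mrpl24 by 0.23 and 0.21. In the shared table the calls for Mrpl18 and Mrpl10 were lost without Y12H and that for Mrpl49 without Y9F (log2 -0.34 to -0.29, -0.32 to -0.19 and -0.32 to -0.22 over the clones left out). The largest falls in the separate table were Mrps7 (-0.34), Mrpl55 (-0.34) and Mrpl2 (-0.31).

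Mrpl10, which anchors the stalk proteins, and Mrpl49 were called in opposite directions in the YTHDC1 and ZCCHC8 lines. Mrpl49 went from 10.7 to 12.4 scaled CPM without dTAG to 14.3 to 16.2 with it in the ZCCHC8 clones (log2 0.37, limma adjusted p = 0.000225), and from 11.8 to 14.7 to 9.69 to 11.7 in the YTHDC1 clones of the same table (-0.27, limma adjusted p = 0.0065). The difference between the 2 effects in the shared table was tested directly. It was higher in ZCCHC8 for 22 of 76 genes and lower for 4, with 44.5% of all genes called (22.3% higher and 22.2% lower) and a median of 0.11 against -0.01 over all genes. With the factor over genes of similar span it was 20 and 7, with the share of short genes as a covariate 9 and 2, and 15 to 23 genes were called with 1 clone left out (15 without Y9F and 16 without Y12H). Mrps12 (1.00), Mrpl52 (0.96), Mrpl36 (0.89), Mrpl14 (0.89), Mrpl49 (0.64) and Mrpl10 (0.55) were among the 22.

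With ZFC3H1 depleted 0 of 76 genes were called by limma and 0 by edgeR, whereas 9.84% of all genes were called by limma (6.25% higher and 3.60% lower). At an unadjusted p under 0.05 there were 12 (5 higher and 7 lower). Mrpl12 came nearest, at 18.1 and 15.4 scaled CPM untreated, 13.0 and 14.7 with Dox, 11.0 and 12.6 with dTAG and 10.7 and 12.6 with dTAG + Dox in clones 8H and 11A. Each library with dTAG was below each without, at a log2 effect of -0.35 (95% interval -0.57 to -0.13, limma adjusted p = 0.0508). Mrpl36 had the largest effect upward at 0.51 (95% interval 0.15 to 0.86). Among the related proteins, Chchd1, a small-subunit protein under another symbol, rose by 0.57 and was called.

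The transgene lines ask whether METTL3 of the WT or of the D395A form makes up for the depletion. In WT XX and WT XiO cells 0 of 75 and 0 of 76 genes were called by limma and 0 by edgeR, as were 0.00% of all genes in either line. At an unadjusted p under 0.05 there were 1 and 0. In D395A XX cells 3 rose and 3 fell (17.1% of all genes called, 8.99% higher and 8.10% lower), and with CPM as deposited 4 rose and 0 fell, with the median of all genes at 0.09. In D395A XiO cells 0 of 76 were called by limma and 0 by edgeR, with 4.99% of all genes called (2.52% higher and 2.47% lower) and 6 of the 76 at an unadjusted p under 0.05. The wells of an experiment were split from the same cells, by the study's methods, and with experiment as a block the counts were larger. In D395A XX cells 11 rose and 10 fell with the block, where 49.6% of all genes were called, 24.3% higher and 25.3% lower. In D395A XiO cells 14 rose and 7 fell, where 47.5% of all genes were called, 23.1% higher and 24.4% lower. In WT XX and WT XiO cells 0 genes were called with the block, as were 0.00% of all genes, with 4 and 0 of the members at an unadjusted p under 0.05. The 6 genes called in D395A XX without the block were also called with it. Without it, each of the 6 calls in D395A XX was lost when either experiment was left out, which leaves a lone library per treatment that is taken to vary like the other line.

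In D395A XX cells Mrps27 stood at 173 and 172 scaled CPM untreated (experiments 1 and 2), 184 and 185 with Dox, 139 and 147 with dTAG, and 144 and 152 with dTAG + Dox. All 4 libraries with dTAG lay below all 4 without (log2 -0.29, SE 0.05, limma adjusted p = 0.00408). In WT XX cells the same gene was at 160 to 173 without dTAG and at 157 to 173 with it (-0.01, 95% interval -0.13 to 0.10). In D395A XiO cells it was at 170 to 192 without and 137 to 155 with dTAG, and did not pass without the block (-0.32, limma adjusted p = 0.0618) but passed with it (limma adjusted p = 7.12e-05), and in WT XiO cells at 152 to 182 and 154 to 169 (-0.04).

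Mrpl19 rose in D395A XX by 0.45 (limma adjusted p = 0.00888), from 9.89 to 12.6 scaled CPM without dTAG to 14.8 to 17.0 with it. Mrpl14 rose by 0.34 and Mrps6 by 0.30, and Mrps23 fell by 0.41 and Mrpl39 by 0.22. Mrps6 and Mrps23 overlap other genes on their strand. Mrpl43 in D395A XiO stood at 1.38 to 2.81 scaled CPM without dTAG and 3.23 to 6.76 with it, which did not pass without the block (log2 0.88, 95% interval 0.38 to 1.39, limma adjusted p = 0.0522) but passed with it (limma adjusted p = 2.55e-05). The summed level of the 6 stem cell markers was 1317 to 1507 scaled CPM without dTAG and 958 to 1085 with it in D395A XX, and 992 to 1559 and 823 to 1057 in D395A XiO. It was 1083 to 1441 without dTAG and 1197 to 1474 with it in WT XX. In WT XiO it was 493 to 612 and 562 to 620, below every other line. Its part in these differences was not tested.

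The difference between D395A and WT was called for 0 of 75 genes in XX cells (2.59% of all genes called, 1.50% higher and 1.09% lower) and for 0 of 76 in XiO cells (0.0297%) by limma, and for 0 by edgeR in both. At an unadjusted p under 0.05 there were 4 and 2. Mrps27 in XX cells came nearest, at a difference of -0.28 (95% interval -0.45 to -0.12, limma adjusted p = 0.0806). With experiment as a block the difference was called for 8 genes in XX cells, 4 higher and 4 lower in D395A (29.9% of all genes called, 14.9% higher and 15.0% lower). In XiO cells it was called for 4 genes, 3 higher and 1 lower (28.3%, 13.4% higher and 15.0% lower). For Mrps27 it passed with the block in XX cells (limma adjusted p = 0.00282) and in XiO cells (-0.29, limma adjusted p = 0.00446).

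Among the genes around the mitochondrial ribosome, Mars2, the mitochondrial methionyl-tRNA synthetase, was called higher with dTAG in 6 of the 9 lines, with the YTHDC1 experiments counted apart. Its log2 effect was 1.07 in METTL3, 0.58 in ZCCHC8, 0.91 and 1.11 in the YTHDC1 experiments, 0.39 in ZFC3H1 and 1.22 in D395A XX. It was 0.92 in D395A XiO, 0.14 in WT XX and 0.12 in WT XiO, none of which passed without the experiment block, and with it D395A XiO did (limma adjusted p = 1.80e-06). In XX cells the D395A effect exceeded the WT effect by 1.09 (SE 0.25, limma adjusted p = 0.0477). In METTL3 clones it stood at 4.77 to 10.6 scaled CPM in the 8 libraries without dTAG and 10.0 to 19.6 in the 8 with it. In ZCCHC8 Tefm, the elongation factor of mitochondrial transcription, rose by 0.92. The stress response list had more genes lower than higher in ZCCHC8, YTHDC1 and ZFC3H1, with 0 higher and 9 lower of 16 in ZCCHC8, 1 and 8 of 16 and 1 and 9 of 17 in YTHDC1, and 0 and 6 of 17 in ZFC3H1. Of all genes, 26.9% were higher and 28.9% lower in ZCCHC8, and 6.25% and 3.60% in ZFC3H1. The shares in YTHDC1 were 16.8% and 16.7% in the shared table and 16.4% and 15.6% in the separate table.

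To ask which genes followed the group, each gene's differences were correlated with those of the median gene over 80 differences from the 20 pairs, which share libraries and composition. Rpl27a (Pearson 0.78), Cct5 (0.77), Rpl32 (0.76), Rps7 (0.73) and Gnb2l1 (0.72) were most alike, 4 of them cytosolic ribosomal proteins or bound to the cytosolic ribosome. These 5 were picked as the highest of 13615 other genes, which ranged from -0.80 to 0.78 with a median of -0.005. The 75 genes of the group themselves ranged from -0.46 to 0.70, with a higher median of 0.35. The median gene is built from the group itself, so this higher value was partly fixed beforehand. It does not show that the genes of the group move together.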

How the data were processed

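The members and gene lists were chosen with earlier results of these data known. Per the study's methods and the labels, reads of rRNA were filtered out (bowtie2) and the remaining ones mapped by STAR to mm10 with strain SNPs masked. The authors counted uniquely mapped reads by strand over whole transcripts (featureCounts) and deposited CPM from edgeR, with alleles combined. In the 6 tables, 100% of values were whole multiples of the CPM of 1 read (tolerance 0.1), which gave the reads for the edgeR alternative. Starts in the tables count from 0, and printed starts have 1 added. Not used were 12 columns that match no sample given here and the 5 allelic ratio tables.

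CPM were divided by a median-ratio factor over autosomal genes within each table, and log2(value + 1) was fitted by limma (3.58.1, R 4.3.3) with a trended prior variance. Genes below a mean of 1 CPM among the fitted libraries were left out. P values were two-sided and adjusted by Benjamini-Hochberg over all genes tested. The Dox fits had each pair of clone and experiment as a block, and the fits of degron lines had clone. The pairing comes from the cell line in the labels, and residuals of a clone's libraries correlated at a mean of 0.289 to 0.601 in METTL3 and 0.382 to 0.865 in the other degron lines. The main fits of transgene lines had no block. Per the study's methods, repeats of a single clone were independent and the wells of a replicate came from a single batch of cells. An experiment number of a transgene line thus pairs its libraries, whose residuals correlated at a mean of 0.571 to 0.886, and counts with experiment as a block stand beside those without. The fits were tested on simulated data. Column names are the same in both YTHDC1 tables, so these columns were assigned to a clone and treatment but not to a sample. Replicates were compared in 56 pairs. In 0 of them were the values identical, and reads differed by a chi-square of at least 7.60 for each degree of freedom. Depth covers counting error only.

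Members named were, by rule, up to 10 called with Dox, up to 4 per line called with dTAG and of the same sign in each clone and Dox state, up to 6 called in most lines, and the 3 highest and 3 lowest per kb. List genes were up to 4 per list with the largest Dox difference. Other genes named were chosen after their values were seen. Alternatives were CPM as deposited, a factor over genes of the members' span (from the 10th to the 90th percentile), a pseudocount of 0.1, no filter, edgeR 4.0.16 on the reads, the read share of genes under 3 kb as a covariate, other blocks, only the lines compared, and each clone, experiment or line left out.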

Additional observations from a re-analysis of the deposited data

Results flagged for a closer look

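In 54 comparisons of the 4 METTL3 clones, 3 had a clone far from the other 3, where chance gives about 1 in 20. Mrpl15 changed with Dox by -0.0655 in clone H1 against 0.22 to 0.26 in the others, on the log2 scale. Mrps34 changed with Dox by 0.6438 in clone H1 against -0.22 to -0.16, and its level was low, between 0.34 and 3.32 scaled CPM. Mrpl45 had a dTAG effect of 0.5328 in clone H5 against 0.07 to 0.14.

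Between ZCCHC8 and YTHDC1 in the shared table, the dTAG effect differed for 44.5% of all genes (22.3% higher in ZCCHC8 and 22.2% lower). Several of the genes named were picked for a large dTAG effect in these same libraries. The dTAG effect differed, by limma with Benjamini-Hochberg adjustment over all genes, for 15 of the genes named. It was higher in ZCCHC8, on the log2 scale, by 0.9974 for Mrps12, 0.9637 for Mrpl52, 0.8891 for Mrpl36, 0.8881 for Mrpl14, 0.6421 for Mrpl49, 0.557 for Mrpl55, 0.5541 for Mrpl10 and 0.4837 for Mrpl2. The difference was 0.4791 for Mrps33, 0.3716 for Mrpl18, 0.302 for Mrpl45, 0.284 for Mrps5 and 0.1869 for Mrpl15. It was lower in ZCCHC8 for Mrpl39 (-0.2409) and Mrpl3 (-0.1958).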

How the results depend on the processing

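Of 167 counts of called genes recomputed under an alternative, 131 stayed within 1.5 times the count reported and 36 did not. Of the values for single named genes, 450 kept their direction and side of the threshold, 94 lost the call, 8 gained it and 0 reversed. With Dox against untreated (7), 1 gene was called without the replicate block, 3 with experiments of 1 clone averaged, and 3 to 10 with 1 line left out. With dTAG + Dox against dTAG (9), it was 1 without the replicate block, 5 with experiments averaged, 17 with CPM as deposited, 14 with the share of short genes as a covariate and 8 to 11 with 1 line left out. For METTL3 (15) it was 30 with CPM as deposited, 23 with the factor over genes of similar span, and 10 to 13 with 1 clone left out. For ZCCHC8 (33) it was 21 to 30 with 1 clone left out. Without the replicate block, 2 genes were called for YTHDC1 in the shared table (8), 0 in the separate table (13) and 15 for ZCCHC8 minus YTHDC1 (26). Leaving out 1 clone gave 3 in the shared table and 15 to 23 for the difference, which was 11 with the covariate. For ZFC3H1 (0) it was 1 with the factor over genes of similar span, 1 with a pseudocount of 0.1 and 2 with the covariate. For D395A XX (6) it was 12 with the covariate, 13 with only that line fitted, and 0 with either experiment left out. For D395A XiO (0) it was 2 with CPM as deposited, 1 with the factor over genes of similar span and 3 with the covariate. D395A minus WT in XX cells (0) gave 2 with the covariate. With experiment as a replicate block, 21 genes were called in D395A XX, 21 in D395A XiO, 8 for D395A minus WT in XX cells and 4 in XiO cells. The causes were not tested. The 4 fits without a clone in the separate YTHDC1 table and ZFC3H1 could not be fitted. On simulated data the ZCCHC8 fit recovered 29% of genes changed by 0.5 on the log2 scale, D395A XX 37% and ZFC3H1 36%. The simulation had a fixed spread, with 100 genes changed by 0.5 and 100 by 1, whereas 55.8% of all genes were called in ZCCHC8. The adjusted threshold is less strict when more genes change, so these shares do not give the sensitivity of the real fits. How many smaller effects were missed was not tested.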
